A study of Mus musculus with 8 samples.

Results

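Chemokines are small secreted proteins that draw white blood cells into tissues, and 10 genes for them were followed through the gut of newborn mice: Ccl2, Ccl7, Ccl11, Ccl3, Ccl4, Ccl28, Cxcl1, Cxcl2, Cxcl5 and Cxcl10. Members were the genes of this set whose name stands on a non-control probe of the arrays. The set was chosen with earlier results of these data known, so its counts beside those of all genes are descriptive only. All 10 had a probe, and all 10 were among the 20138 named genes tested. The RNA came from 8 samples of 129SV pups at 3 days of age, with 2 samples in each of 4 groups: claudin-7 knockout (KO) small intestine, wild-type (WT) small intestine, KO large intestine and WT large intestine. Claudin-7 is a protein of the junctions between epithelial cells. The pups received no treatment, and each sample was a fragment of intestine kept in RNAlater, so every layer of the gut wall could contribute RNA. The labels do not say which cells the deletion covers, how it was made, or which samples came from the same pup. With 2 samples per group, p-values measure only the spread between these samples, which may be technical.

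Chemokines fall into families by the spacing of their first cysteines, and each is read by a few receptors on white blood cells. CC chemokines such as Ccl2 and Ccl7 draw monocytes, while CXC chemokines such as Cxcl1, Cxcl2 and Cxcl5 draw neutrophils. In the gut, epithelial cells, macrophages, fibroblasts and other stromal cells are known sources, and many of these genes are switched on by NF-kB, the transcription factor of inflammatory signalling. Ccl28 and Ccl11 are different in that they are also made in unchallenged mucosa.

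Each RNA sample was hybridised to a single-colour Agilent array, and the values below are scaled signals, that is, the deposited signal of a probe after the 75th percentile of every array was set to the same level. That percentile lay between 2642.5 and 3571.77 before scaling. Cldn7, the deleted gene, fell by 4.34 ± 0.39 on the log2 scale in KO small intestine and fell by 3.52 ± 0.39 in KO large intestine (limma, adjusted p = 0.00804 and 0.0342), and it is not known whether the probe sits inside the deleted stretch. All 11 gut epithelium markers were well above background on all 8 arrays. Some arrays stood apart. Xist, the RNA of the inactive X chromosome, read 603.2 and 597.7 on both KO arrays numbered 3, against 18.4 to 42.4 on the other 6 arrays, and the Y-linked Ddx3y read 9.1 and 6.3 there, against 5254 to 8142. No WT array showed this pattern, so the KO and WT groups are unbalanced in it. The labels give no sex. Alb, the liver gene for albumin, read 121400 on KO large intestine replicate 2, and the pancreatic amylase Amy2a5 read 13390 on KO large intestine replicate 3 and 15850 on WT large intestine replicate 2. All 8 arrays lay on 1 slide, where each group filled 1 column and each replicate number 1 row, so that slide column cannot be told apart from group, and samples of equal number share a slide row. Counts were therefore also taken without both KO arrays numbered 3.

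The comparison of KO with WT small intestine asks how chemokine genes differ when claudin-7 is missing from that segment. Of the 10 genes, 7 rose (Ccl2, Ccl7, Ccl3, Ccl4, Cxcl1, Cxcl2 and Cxcl5), 2 fell (Ccl28 and Ccl11), and Cxcl10 did not pass. Cxcl2 entered the test only through the KO groups, where it is high. Among all genes tested, 9.89% passed, 6.38% as higher and 3.51% as lower in the KO. Passing means an adjusted p under 0.05 in limma, a linear model fitted to every gene, with the Benjamini-Hochberg adjustment over the 20138 genes tested. The 10 members had a median log2 fold change of 2.64, against -0.10 across the whole table, which thus sat slightly below 0 in this segment. As the members were chosen with earlier results of these data known, such contrasts with all genes do not test the set. Both KO arrays lay above both WT arrays for 7 members, as they did for 26.6% of all genes, and below them for 2 members, as for 32.7% of all genes. Over all genes, the count that passed fell in each of the fits named next. The number of members that passed rested on single arrays as well. It was 2 without KO small intestine replicate 3 and 2 without WT small intestine replicate 3 (Ccl2 and Ccl28 each time), 3 without either WT large intestine array, which lend spread to the fit (Ccl2, Ccl7 and Ccl28), and 2 without both KO arrays numbered 3 (Ccl28 and Cxcl2). With the replicate number, and thus the slide row, as a block, 6 passed (Ccl2, Ccl28, Ccl3, Ccl7, Cxcl1 and Cxcl5). The 9 that passed kept their direction in every one of these fits.

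**Figure D1:**
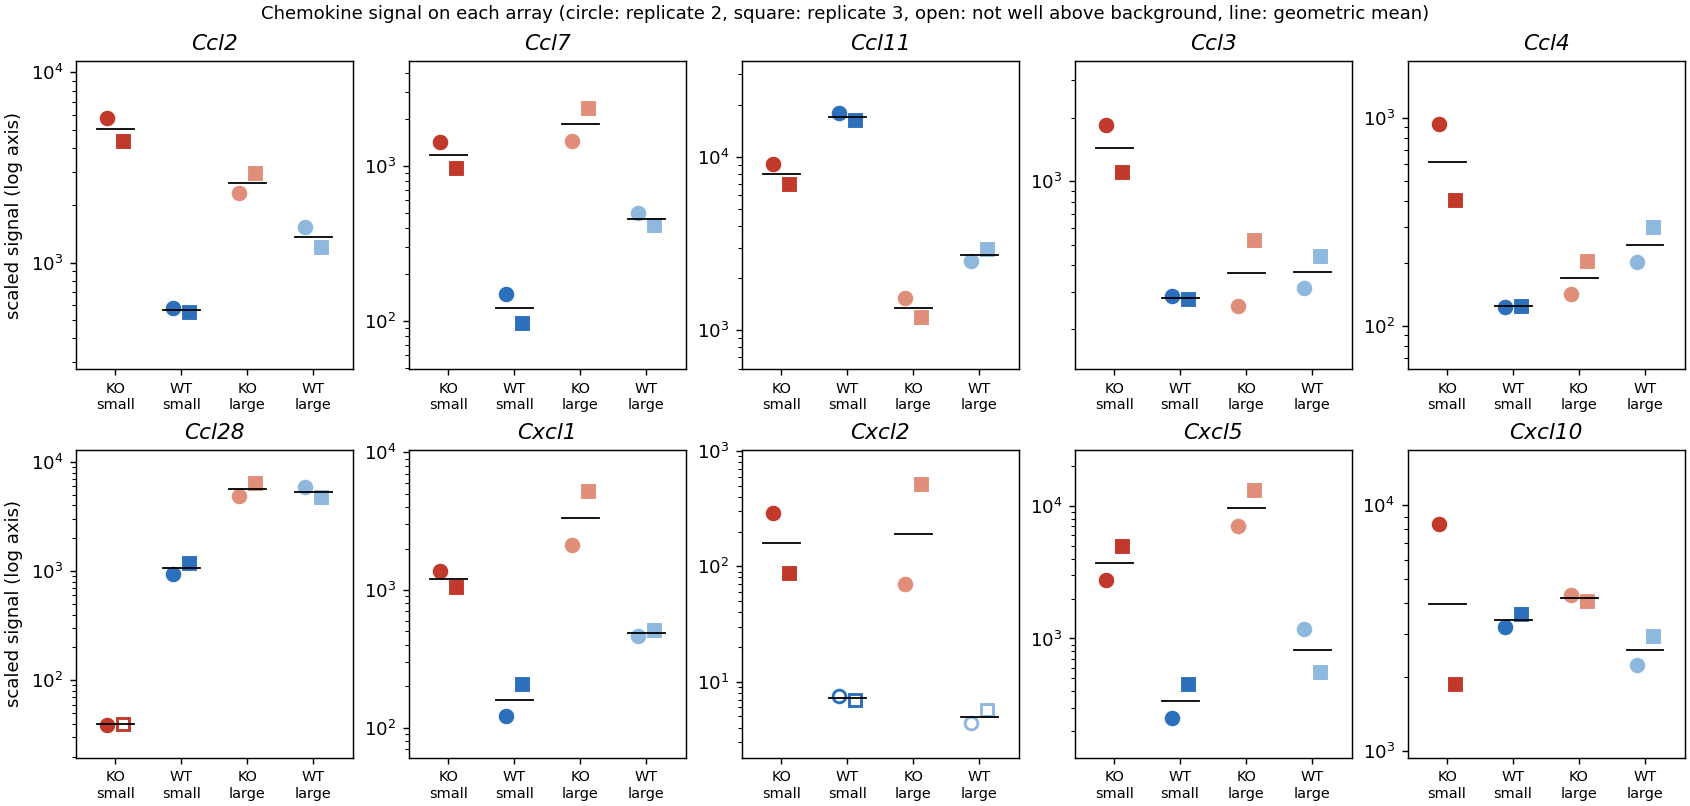
Scaled signal (log axis, signal units) of the 10 chemokine genes on each of the 8 arrays, with circles for replicate 2, squares for replicate 3, open marks for arrays not well above background and lines for geometric means. In the small intestine the KO marks lie above both WT marks for 7 genes and below them for Ccl11 and Ccl28.

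Ccl2, the main attractant of monocytes through the receptor Ccr2, read 5727 and 4378 in KO small intestine, against 579.6 and 550.2 in WT small intestine. Both KO arrays were far above both WT arrays, and the difference was 3.15 ± 0.24 on the log2 scale (8.87-fold, adjusted p = 0.00468). Large intestine gave 2330 and 2944 in the KO, against 1530 and 1212 in WT. There too the arrays did not overlap, but the difference of 0.94 ± 0.24 did not pass (adjusted p = 0.207). Ccl2 was printed in 10 spots on each array, of which 7 to 10 were free of flags, and their spread within an array was 2.53% to 5.5% of the mean, which covers spot noise only and not the variation between samples. The other 9 genes had 1 spot each. The Ccl2 call in the small intestine held in 16 of 17 alternative settings and was lost only without both KO arrays numbered 3 (adjusted p = 0.0549).

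Ccl7, another Ccr2 ligand, is the next gene along chromosome 11, where Ccl2, Ccl7, Ccl11 and Ccl12 follow each other in the RefSeq order of GRCm38.p6. Its probe lies at chr11:81860656-81860715 and that of Ccl2 at chr11:81850650-81850709, in the mm9 coordinates the files give. Ccl7 read 1430 and 971.5 in KO small intestine, against 150.4 and 97.85 in WT small intestine. It read 1449 and 2379 in KO large intestine, against 495 and 415.7 in WT large intestine. KO arrays were above WT arrays in both segments. The log2 difference was 3.28 ± 0.35 in the small intestine, which passed (9.72-fold, adjusted p = 0.0123), and 2.03 ± 0.35 in the large intestine, which did not (adjusted p = 0.105). Ccl12, the neighbour on the other side of Ccl11 and also a monocyte attractant, rose in the small intestine as well: it read 2966 and 1763 in the KO, against 480.3 and 415.2 in WT (2.36 ± 0.27, adjusted p = 0.0151). Across the 8 arrays the log2 values of Ccl2 and Ccl7 correlated at r = 0.90, over points that share group and scaling.

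Ccl11, called eotaxin, draws eosinophils through Ccr3, and it lies between these neighbours but moved the other way. It read 9115 and 6947 in KO small intestine, against 17840 and 16280 in WT small intestine, so both WT arrays were the higher ones. It fell by 1.10 ± 0.23 on the log2 scale (2.14-fold, adjusted p = 0.0402). The large intestine showed 1530 and 1194 in the KO, against 2521 and 2955 in WT, again without overlap. That difference was -1.01 ± 0.23 and did not pass (adjusted p = 0.18). The Ccl11 call in the small intestine was close to the threshold and passed in 7 of 17 alternative settings. Ccr3 read 565 and 423.9 in KO small intestine, against 737.6 and 620.5 in WT small intestine (-0.47 ± 0.30, adjusted p = 0.34). None of the 6 eosinophil markers tested passed in either segment, and their summed scaled signal was 3300 to 3700 in KO and 1460 to 2610 in WT small intestine. In bulk tissue, fewer cells of a type and less RNA per cell cannot be told apart.

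Ccl3 and Ccl4 are neighbours on chromosome 11 too. Ccl3 signals through Ccr1, among other receptors. Both are made mainly by macrophages and other white blood cells. Ccl3 read 1850 and 1106 in KO small intestine, against 285.6 and 275.2 in WT small intestine. Ccl4 read 937.7 and 404.8 in KO small intestine, against 124 and 124.4 in WT small intestine. KO arrays were higher for both genes, and the log2 differences were 2.35 ± 0.41 for Ccl3 (adjusted p = 0.0316) and 2.31 ± 0.43 for Ccl4 (adjusted p = 0.0343). The groups overlapped in the large intestine. Ccl3 read 257.5 and 525.8 in the KO, against 312 and 443 in WT (-0.02 ± 0.41, adjusted p = 0.99), and Ccl4 read 141.8 and 205.3 in the KO, against 202.6 and 297.7 in WT (-0.53 ± 0.43, adjusted p = 0.61). Ccl3 and Ccl4 correlated at r = 0.95 over the 8 arrays, and their calls held in 11 and 7 of 17 alternative settings. Ccr1 did not pass, with a log2 difference of 0.41 ± 0.29 in the small intestine (adjusted p = 0.37).

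The CXC genes Cxcl1, Cxcl2 and Cxcl5 draw neutrophils through Cxcr2. Cxcl1 and Cxcl2 are neighbours on chromosome 5, and stretches of sequence just before each gene's start are shown because both genes rose together and Cxcl10, a gene of the same chromosome, did not pass. Sequences are those of RefSeq (GRCm38.p6), end at the base before the gene's start and run 5′ to 3′ on the gene's strand. Capitals mark matches to the kB-type pattern (GGG, any 2 bases, TT, any base, CC, on either strand) and, in Cxcl10, the first capitals mark a match to the ISRE-type pattern (GAAA, any 2 bases, GAAA), the kind of site that interferon-activated factors bind. These motifs were picked after the sequences were seen.
Cxcl1 promoter, chr5:90891125-90891244 (+ strand): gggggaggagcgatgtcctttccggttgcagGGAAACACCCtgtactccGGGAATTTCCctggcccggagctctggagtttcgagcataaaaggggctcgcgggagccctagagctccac
Cxcl2 promoter, chr5:90903779-90903898 (+ strand): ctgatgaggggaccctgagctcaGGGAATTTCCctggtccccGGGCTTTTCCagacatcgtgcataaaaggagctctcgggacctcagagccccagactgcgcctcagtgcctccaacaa
Cxcl10 promoter, chr5:92348890-92349139 (- strand): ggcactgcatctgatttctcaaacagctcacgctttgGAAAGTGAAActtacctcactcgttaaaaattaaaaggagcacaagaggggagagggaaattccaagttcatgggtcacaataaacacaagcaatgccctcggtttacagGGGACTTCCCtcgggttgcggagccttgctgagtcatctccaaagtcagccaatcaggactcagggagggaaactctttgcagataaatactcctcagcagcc
The table held promoters for 5 of the 10 members (Ccl3, Ccl28, Cxcl1, Cxcl2 and Cxcl10). In the 250 bases before the start, Cxcl1 and Cxcl2 had 2 kB-type matches each and Cxcl10 had 1, while Ccl3 and Ccl28 had none. Of 32851 promoters in the table, 4.11% held a kB-type match in that window, and 2.98% held an ISRE-type match. Cxcl10 had 1 ISRE-type match and no other of the 5 had one. The longest run shared by the Cxcl1 and Cxcl2 stretches was gggaatttccctgg, 14 bases that begin 71 bases before the Cxcl1 start and 97 bases before the Cxcl2 start. These counts hold for the exact patterns only, and near matches were not counted in any gene. The Cxcl10 stretch, for example, also holds gggaaattcc, which misses the kB-type pattern by 1 base. A match describes letters only and does not show that a factor binds there.

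**Figure D2:**
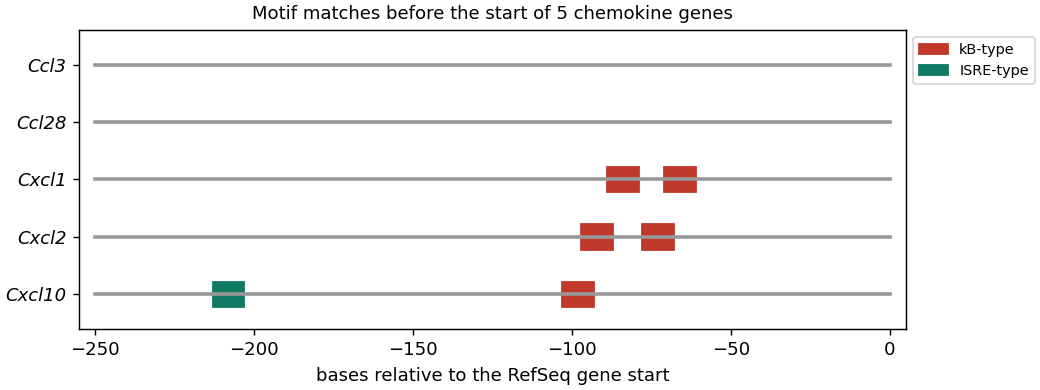
Positions of kB-type (red) and ISRE-type (green) matches in the 250 bases before the RefSeq start of 5 chemokine genes, as bases from the start. Cxcl1 and Cxcl2 have 2 kB-type matches each between 62 and 97 bases before the start, and Cxcl10 has 1 of each kind.

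Cxcl1 read 1380 and 1051 in KO small intestine, against 121 and 209.4 in WT small intestine. It read 2133 and 5233 in KO large intestine, against 466.9 and 514.3 in WT large intestine. In both segments every KO array lay above every WT array. The log2 differences were 2.92 ± 0.46 in the small intestine, which passed (7.57-fold, adjusted p = 0.0275), and 2.77 ± 0.46 in the large intestine, which did not (adjusted p = 0.0977). Cxcl5, which in mice is made largely by epithelial cells, read 2774 and 4966 in KO small intestine, against 252.3 and 456.6 in WT small intestine. Large intestine values of Cxcl5 were 7105 and 13250 in the KO, against 1182 and 558 in WT. The KO arrays were again the higher ones throughout. Its log2 differences were 3.45 ± 0.53 in the small intestine (10.9-fold, adjusted p = 0.0262) and 3.58 ± 0.53 in the large intestine (adjusted p = 0.0707).

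Cxcl2 was not well above background on any of the 4 WT arrays. It read 287.3 and 88.18 in KO small intestine and 70 and 512.4 in KO large intestine, while the dim WT readings were 7.576 and 6.954 in small intestine and 4.389 and 5.65 in large intestine. Because WT gives only a bound, Cxcl2 was at least 7.67-fold higher in KO small intestine in the main processing (adjusted p = 0.0396). In KO large intestine it was at least 8.96-fold higher and did not pass (adjusted p = 0.113). The limma p-values come from the dim WT readings, not from the bound. Over the settings the log2 difference ran from 1.7 to 5.3 in the small intestine and from 2.0 to 6.7 in the large intestine. The bounds thus hold for the main processing only. The bound sets the KO mean against the lowest signal that counted as well above background on each WT array. Cxcl2 entered the test only through the KO groups, where it is high, so its presence among the tested genes already depended on that difference. The spread between KO replicates was wide in both segments, and the small intestine call held in 6 of 16 alternative settings. Cxcr2 read 85.96 and 218.7 in KO small intestine, against 122.1 and 27.18 in WT small intestine, and the groups overlapped (1.25 ± 0.87, adjusted p = 0.372). Cxcl3, a further Cxcr2 ligand, was at least 3.20-fold higher in KO small intestine and at least 6.86-fold higher in KO large intestine, and passed in neither (adjusted p = 0.176 and 0.209). Cxcl3 too was dim in both WT groups and entered the test only through the KO groups.

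Cxcl10 is induced by interferon and draws T cells through Cxcr3. It read 8439 and 1872 in KO small intestine, against 3200 and 3605 in WT small intestine. The KO arrays lay on opposite sides of the WT arrays, with replicate 2 the highest of the 8 arrays and replicate 3 the lowest. The log2 difference was 0.23 ± 0.63 (95% interval -1.27 to 1.72, adjusted p = 0.837). Its large intestine values were 4299 and 4082 in the KO, against 2243 and 2938 in WT, without overlap (0.71 ± 0.63, adjusted p = 0.639). None of the 24 interferon-stimulated genes on the list passed in either segment. Among all genes 9.89% passed in the small and only 0.308% in the large intestine. The median log2 fold change of the 24 was -0.115 in the small intestine, against -0.102 across the table. In the large intestine it was 0.162, against -0.001. Their summed scaled signal ran from 348000 to 1100000 in KO small intestine and from 523000 to 668000 in WT small intestine. Cxcr3 read 759.8 and 505.5 in KO small intestine, against 984.3 and 870.3 in WT small intestine (-0.58 ± 0.30, adjusted p = 0.233).

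Ccl28 is made by mucosal epithelium and draws antibody-producing cells that carry Ccr10, with Ccr3 as a second receptor. It read 39.03 and 39.78 in KO small intestine, against 947.2 and 1186 in WT small intestine. KO replicate 3 was not well above background, so the KO level there was measured on 1 of 2 arrays. Ccl28 fell by 4.75 ± 0.24 on the log2 scale (26.9-fold, adjusted p = 0.00203), the largest drop among the 10 genes. With normexp background correction the value was -3.17, still past the threshold, and it passed in all 16 alternative settings that tested it. Its large intestine values were 4856 and 6495 in the KO, against 5869 and 4772 in WT. The groups overlapped there, and the difference was 0.09 ± 0.24 (95% interval -0.48 to 0.65, adjusted p = 0.891). Its probe lies on the unplaced part of chromosome 13 in mm9. Ccr10 read 36.06 and 70.55 in KO small intestine, against 34.08 and 56.32 in WT small intestine (0.20 ± 0.47, adjusted p = 0.805).

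The same question was asked in the large intestine, where 0 of the 10 genes passed in limma, against 0.308% of all genes (0.164% higher and 0.144% lower in the KO). At an unadjusted p under 0.05 there were 6, but the share of all genes at that threshold was not taken, so this count has nothing to stand beside. Both KO arrays lay above both WT arrays for 6 members, as they did for 27.6% of all genes, and below them for 1, as for 27.7% of all genes. Among members measured in both groups the largest differences were in Cxcl5, Cxcl1 and Ccl7, while Cxcl2 had only its bound. The members' median log2 fold change was 0.83, against -0.001 across the table. With normexp background correction 1 gene passed (Cxcl5), and without both KO arrays numbered 3 it was also 1 (Cxcl2).

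**Figure D3:**
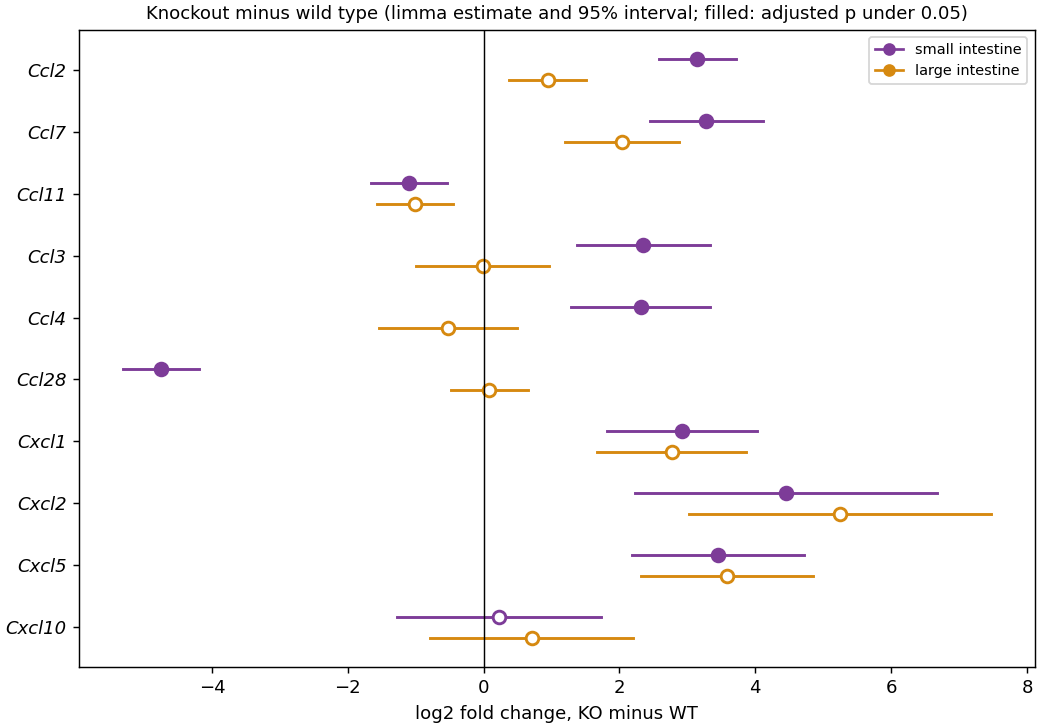
Log2 fold change, KO minus WT, with 95% interval from limma for the 10 genes in small (purple) and large (orange) intestine, filled where the adjusted p is under 0.05. Cxcl1, Cxcl5 and Ccl11 have like values in both segments, Ccl28 is far below 0 in the small intestine alone, and the Cxcl2 values rest on WT arrays below background.

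Over both segments in 1 fit with genotype and segment as terms, 5 of the 10 genes passed: Cxcl5, Cxcl1, Ccl7 and Cxcl2 rose and Ccl11 fell. Among all genes 0.651% passed, 0.397% as higher and 0.253% as lower. The log2 differences were 3.52 ± 0.36 for Cxcl5 (adjusted p = 0.0177), 2.85 ± 0.32 for Cxcl1 (adjusted p = 0.0235) and 2.66 ± 0.33 for Ccl7 (adjusted p = 0.0308). Ccl11 fell by 1.06 ± 0.17 and sat at the threshold (adjusted p = 0.0491), and Cxcl2 had an adjusted p of 0.0396. The WT arrays were all dim for Cxcl2, which entered the test only through the KO groups, where it is high. Ccl2 was higher by 2.05 ± 0.44 and did not pass (adjusted p = 0.0904). In both segments at once, 5 members had both KO arrays above both WT arrays, against 5.79% of all genes, and 1 had both below, against 9.01%. The count of 5 was 0 to 4 when single arrays were left out. It was 0 without KO small intestine replicate 3, WT small intestine replicate 2 or either WT large intestine array, and 0 without both KO arrays numbered 3. It was 1 without KO small intestine replicate 2 (Cxcl5) or KO large intestine replicate 3 (Cxcl2), and 3 without WT small intestine replicate 3.

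Whether the KO difference itself differed between the segments was tested as an interaction, large minus small intestine. Ccl28 passed, with 4.84 ± 0.34 in log2 units (adjusted p = 0.00882), and it was the only one of the 10, while 0.139% of all genes passed (0.0943% higher and 0.0447% lower). The median of this difference was 0.14 over all genes, so single values stand beside a small shift of the whole table. For Ccl28 the KO and WT levels nearly met in the large intestine and lay far apart in the small intestine. Its interaction did not pass without KO small intestine replicate 3, WT small intestine replicate 3 or either WT large intestine array, nor without both KO arrays numbered 3, and over the settings its adjusted p ran from 0.00741 to 0.0939. With normexp background correction the interaction was 3.27, also past the threshold. Ccl2, Ccl3 and Ccl4 had negative values, -2.20 ± 0.34, -2.37 ± 0.58 and -2.84 ± 0.60, and did not pass (adjusted p = 0.0987, 0.1 and 0.1). Without KO small intestine replicate 2, Ccl2 passed beside Ccl28. For Cxcl1, Cxcl5 and Ccl11 the differences between segments were -0.15 ± 0.65, 0.13 ± 0.75 and 0.08 ± 0.33, with adjusted p of 0.899, 0.927 and 0.889, and their 95% intervals ran from -1.71 to 1.41, from -1.67 to 1.92 and from -0.70 to 0.87.

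Large and small intestine also differed in their chemokines within each genotype. In WT, 3 of the 10 genes were higher in the large intestine (Ccl28, Ccl7 and Ccl2) and 1 was lower (Ccl11), while 19.8% of all genes passed (9.93% higher and 9.92% lower). Ccl28 read 5869 and 4772 in WT large intestine, against 947.2 and 1186 in WT small intestine, a log2 difference of 2.32 ± 0.24 (4.99-fold, adjusted p = 0.00203). Ccl11 read 2521 and 2955 in WT large intestine, against 17840 and 16280 in WT small intestine, a difference of -2.64 ± 0.23 (6.24-fold, adjusted p = 0.00132). Ccl28 was thus the higher one in the large and Ccl11 in the small intestine. Ccl7 was higher in the large intestine by 1.90 ± 0.35 (adjusted p = 0.0146) and Ccl2 by 1.27 ± 0.24 (adjusted p = 0.0154). Without WT small intestine replicate 3 or either WT large intestine array the count was 2, Ccl28 and Ccl11.

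In the KO, 1 gene was higher in the large intestine (Ccl28) and 4 were lower (Ccl11, Ccl3, Ccl4 and Ccl2), while 15.9% of all genes passed (8.27% higher and 7.58% lower). Ccl28 differed by 7.16 ± 0.24 (142-fold, adjusted p = 5.31e-05), with the small intestine measured on 1 of 2 arrays, and the difference was 5.55 with normexp background correction. Ccl11 differed by -2.56 ± 0.23 (adjusted p = 0.00122). Ccl3 (-1.96 ± 0.41, adjusted p = 0.0237), Ccl4 (-1.85 ± 0.43, adjusted p = 0.0323) and Ccl2 (-0.94 ± 0.24, adjusted p = 0.044) were also lower there. The Ccl2 call in the KO was close to the threshold and held in 7 of 17 alternative settings, and it was lost with the replicate block, without a background filter and without both KO arrays numbered 3. The count was 3 without KO small intestine replicate 2, either KO large intestine array or either WT large intestine array, with Ccl28 and Ccl11 in each of these fits.

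**Figure D4:**
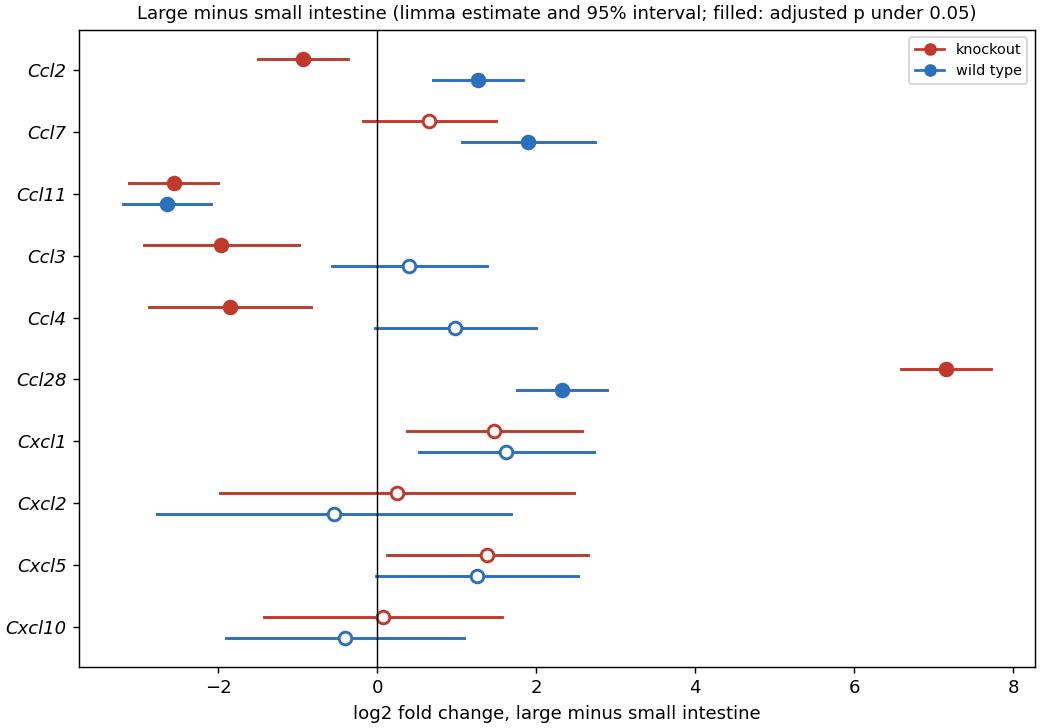
Log2 fold change, large minus small intestine, with 95% interval from limma for the 10 genes in KO (red) and WT (blue), filled where the adjusted p is under 0.05. Ccl11 lies near -2.6 in both genotypes, while Ccl28 is at 7.16 in the KO and 2.32 in WT.

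Ordered by level, the groups of each gene gave different rankings. The share of all genes with an order free of overlap was not counted, so these orders only describe single genes. Ccl2 was highest in KO small intestine, then KO large, WT large and WT small intestine, and each step was free of overlap, with a gap between neighbouring arrays of 1.49-fold, 1.52-fold and 2.09-fold. Ccl7, Cxcl1 and Cxcl5 had KO large intestine on top, then KO small, WT large and WT small intestine, also without overlap, and for Ccl7 the top step was only 1.01-fold. Ccl11 ran from WT small intestine through KO small and WT large to KO large intestine. Ccl28 ran from KO and WT large intestine, which overlapped, through WT small intestine to KO small intestine, where replicate 3 was not well above background, so the size of that last step is not given. For Ccl3, KO small intestine stood above the other 3 groups, of which KO large intestine overlapped both WT groups. For Ccl4 it did so as well, and there only KO and WT large intestine overlapped.

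The other chemokine genes were read in the same way. Of 25 further ligands tested in the small intestine, 5 rose (Ccl12, Cxcl17, Cxcl13, Ppbp and Pf4) and 2 fell (Ccl19 and Xcl1), against a background of 6.38% and 3.51%; the median log2 fold change was 0.42 over the list, against -0.10 across the table. Cxcl17, made by mucosal epithelium, rose by 2.40 ± 0.30 (adjusted p = 0.0192), with WT measured on 1 of 2 arrays, and it entered the test only through the KO groups, where it is high. Pf4, the platelet chemokine, read 48710 and 72030 in KO small intestine, against 24050 and 19450 in WT small intestine, and rose by 1.45 ± 0.24 (adjusted p = 0.0295). Xcl1, made by activated T and NK cells, was not well above background in the KO and was at least 3.78-fold lower there (adjusted p = 0.0162). None of the 25 passed in the large intestine. Of 21 receptors tested, 1 rose in the small intestine, the scavenging receptor Ackr2 that removes inflammatory CC chemokines (1.34 ± 0.26, adjusted p = 0.0369), and 0 passed in the large intestine. Ackr2 read 3690 and 4910 in KO small intestine, against 2077 and 1364 in WT small intestine. Ccr2, the receptor of Ccl2, Ccl7 and Ccl12, read 270.4 and 378.7 in KO small intestine, against 253.1 and 145.1 in WT small intestine (0.74 ± 0.39, adjusted p = 0.25).

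**Figure D5:**
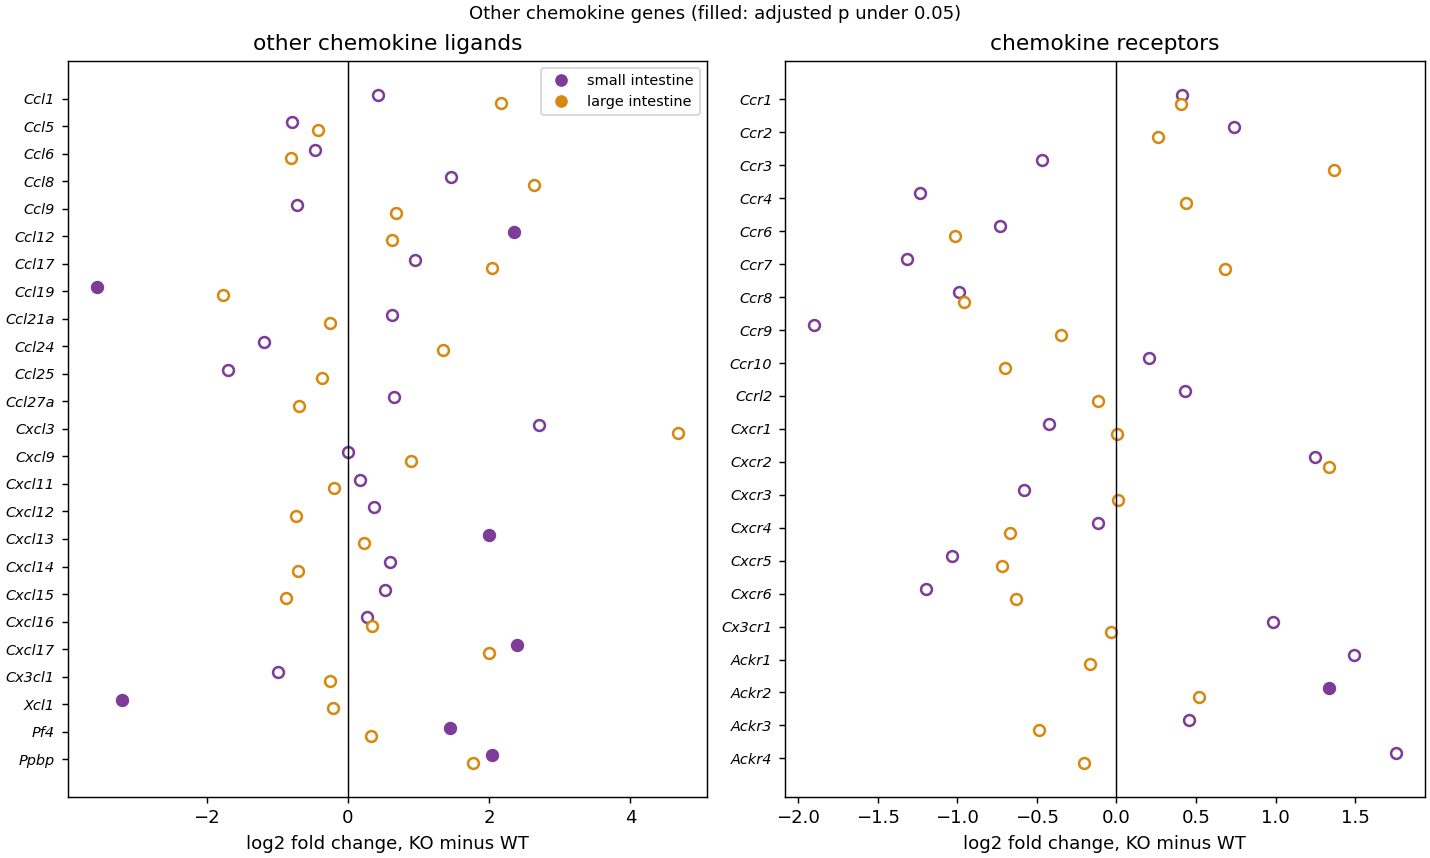
Log2 fold change, KO minus WT, of 25 other chemokine ligands (left) and 21 chemokine receptors (right) in small (purple) and large (orange) intestine, filled where the adjusted p is under 0.05. In the small intestine 5 ligands and 1 receptor rose and 2 ligands fell.

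Of 21 genes linked to NF-kB signalling, 4 rose in the small intestine and none fell, against 6.38% and 3.51% of all genes. These were Il1rn (3.58 ± 0.46, adjusted p = 0.0199), Il33 (1.20 ± 0.21, adjusted p = 0.0319), Il6 (3.59 ± 0.67, adjusted p = 0.035, WT measured on 1 of 2 arrays) and Tnf (1.65 ± 0.37, adjusted p = 0.0432). Il6 and Tnf are inflammatory cytokines, Il33 is an alarmin released by damaged cells, and Il1rn blocks the interleukin 1 receptor. None of the 21 passed in the large intestine. Of 10 genes of type 2 immunity and alarmins, Il1rl1, the receptor of Il33, rose by 2.39 ± 0.34 (adjusted p = 0.0231) and Tslp, an epithelial cytokine, by 2.04 ± 0.32 (adjusted p = 0.0266), while Retnla was at least 2.03-fold lower in KO small intestine (adjusted p = 0.0255).

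Markers of white blood cells differed between the same samples, and their part in the chemokine results was not tested. Beside the counts that follow, 6.38% of all genes rose and 3.51% fell in KO small intestine. Of 12 monocyte and macrophage markers, 6 rose in KO small intestine and none fell, among them Cd14 (2.27 ± 0.21, adjusted p = 0.00956), Lyz2 (1.77 ± 0.28, adjusted p = 0.0268), Adgre1 (1.32 ± 0.23, adjusted p = 0.0316) and C1qa (0.98 ± 0.18, adjusted p = 0.0339). The summed scaled signal of the 12 was 250000 to 406000 in KO and 302000 to 356000 in WT small intestine, so the sum overlapped. Without the brightest gene of the list it was 74200 to 93600 in KO and 76400 to 97600 in WT, again with overlap. Of 13 neutrophil markers, Fpr2 (2.79 ± 0.40, adjusted p = 0.0238) and Fpr1 (2.86 ± 0.55, adjusted p = 0.0362) rose, and Mmp8 was at least 3.83-fold higher (adjusted p = 0.0394), though it entered the test only through the KO groups. The neutrophil sum was 119000 to 133000 in KO and 100000 to 118000 in WT small intestine. Without the brightest gene of the list it was 61000 to 72700 in KO and 40600 to 46100 in WT. Of the 13, 1 passed in the large intestine, where 0.164% of all genes passed as higher. This was Ly6g, which read 41040 and 70940 in the KO, against 4381 and 4107 in WT (3.67 ± 0.34, adjusted p = 0.0257). The neutrophil sum there was 189000 to 204000 in the KO and 114000 to 122000 in WT. Without the brightest gene of the list it was 140000 to 150000 in the KO and 36400 to 38200 in WT. Of 11 T and NK cell markers, 5 fell in KO small intestine, among them Cd3g (-3.02 ± 0.30, adjusted p = 0.0113), with Cd8a and Ncr1 not well above background there, and none of the 11 had a log2 difference above 0. Their sum was 189000 to 278000 in KO and 222000 to 256000 in WT, but Cd4 made up most of it. Without Cd4 it was 10400 to 10600 in KO and 18900 to 19800 in WT, without overlap. Of 8 B and plasma cell markers 3 fell, among them Ms4a1 (-3.42 ± 0.57, adjusted p = 0.0286), and Jchain was not well above background in KO small intestine. Their sum was 7870 to 13200 in KO and 7940 to 14200 in WT, and without Sdc1, the brightest of them, it was 1910 to 2190 in KO and 3930 to 5330 in WT, without overlap. Of 7 mast cell markers 1 rose, Hdc (2.83 ± 0.53, adjusted p = 0.0348).

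Markers of the gut wall differed too, and their part was not tested either. The share of all genes was again 6.38% higher and 3.51% lower in KO small intestine. Of 9 enteric neuron and glia markers, 7 rose in KO small intestine, among them Vip (2.25 ± 0.37, adjusted p = 0.0288) and Ret (1.54 ± 0.29, adjusted p = 0.0362), and their sum was 104000 to 178000 in KO and 28200 to 52200 in WT. Of 5 mesothelium markers 4 rose, with a sum of 53700 to 76400 in KO and 15200 to 24000 in WT, and of 8 fibroblast markers 3 rose, with 1400000 to 1420000 in KO and 677000 to 871000 in WT. Of 8 smooth muscle markers 1 rose (Tagln, 1.09 ± 0.26, adjusted p = 0.0493), with 1500000 to 1860000 in KO and 540000 to 983000 in WT. Of 11 epithelium markers 3 fell (Elf3, Cdx1 and Cdx2) and 1 rose (Krt20, 2.28 ± 0.25, adjusted p = 0.0129), with sums of 1360000 to 1630000 in KO and 1290000 to 1540000 in WT small intestine, which overlapped. All 11 had a log2 difference above 0 in the large intestine, where Krt20 rose by 2.04 ± 0.25 (adjusted p = 0.0414, against 0.164% of all genes higher) and the sum was 1950000 to 2380000 in KO and 1600000 to 1610000 in WT, without overlap. None of the neuron, mesothelium, fibroblast and smooth muscle markers passed in the large intestine. None of the 8 endothelium and none of the 9 liver and pancreas markers passed in either segment. The endothelium sum was nonetheless 104000 to 125000 in KO and 68000 to 95800 in WT small intestine. In the large intestine the endothelium sum was 44200 to 44900 in KO and 49800 to 55700 in WT.

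For the 8 members well above background on all arrays (not Ccl28 and Cxcl2), the genes whose log2 values tracked them most closely over the 8 arrays were read as a description, among 6186 genes that were well above background on all arrays and varied between them. Ccl2 was followed most closely by Klf6 (r = 0.979), Gpr84 and Dmp1, and Ccl7 by Slurp1 (r = 0.981). Ccl3 had Endou (r = 0.956) and its neighbour Ccl4 (r = 0.951) on top. For Cxcl1 these were Sgk2 (r = 0.977), Dusp9 and Tnf (r = 0.963), and for Cxcl5 Pou2f2 (r = 0.972), Mpzl3 and Sgk2. The top genes of Cxcl10 were the interferon-induced Oas1g (r = 0.861), Oas1f and Oas1a. Ccl11 came with Slc34a3 at r = 0.995. All these points share group, segment and scaling.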

How the data were processed

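Total RNA of 8 samples was labelled with Cy3 and read on Agilent single-colour arrays. Groups and replicate numbers came from the sample titles. The deposited scanner files hold intensity per spot, and per the file headers the scanner software, Agilent Feature Extraction (version 10.7.3.1), had already subtracted background and removed spatial trends. Probe positions are on mm9. The authors also deposited a table of normalized intensity, scaled between arrays (column medians 158.06 to 160.06), whose background step is not given in the sources used here. The submitters' processing notes name R 3.3.0.

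The log2 processed signal was centred on the 75th percentile of its array. Flagged outlier spots were left out (302 of 55681 probes lost) and spots of a probe averaged. A probe was kept if both arrays of some group read it well above background. Probes were named through RefSeq (GRCm38.p6, names only), and the brightest probe stood for each gene, which gave 20138 genes. Each member had 1 probe. The scaled signal sets every array's percentile to 3228.8.

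The comparisons used limma 3.58.1 under R 4.3.3 (tables read by the data.table package, version 1.17.8). A mean was fitted for each group over all 8 arrays, with 4 residual and 2.721 prior degrees of freedom. The fit over both segments had additive terms and 5 residual degrees of freedom. The Benjamini-Hochberg adjustment ran over all genes. Values after ± are standard errors of the log2 fold change, from 2 arrays per group, or 4 per genotype over both segments. The median standard error within a segment was 0.277. Precision is limited by having 2 arrays in a group. The limma script was tested on simulated data.

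Promoter windows came from RefSeq, and figures were drawn with matplotlib 3.10.9 in Python 3.11.15. The members and the 18 gene lists were chosen with earlier results of these data known. Named genes are the members, Cldn7, the array checks, up to 4 genes with the smallest p of each list among those that passed in a knockout comparison, the members' receptors, and the 3 genes most like each of 8 members (Ccl28 and Cxcl2 were not well above background on all arrays). Cxcl3, Cxcl13, Ppbp, Ccl19 and Jchain were named after their values were seen. From the lists, 2 genes are not reported here.

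Whether equal numbers pair samples was checked by the correlation of deviations from group means, which was 0.107 (KO with WT small intestine), 0.007 (KO with WT large intestine), 0.056 (KO small with KO large), 0.217 (WT small with WT large), 0.176 (KO small with WT large) and 0.261 (KO large with WT small). Pairing was not established. Alternatives were normexp (offset 50), quantile normalization, the authors' normalized table, no background filter, a filter on all arrays, the outlier flags left unused, probes of a gene averaged, the replicate number as a block, each array left out, and both KO arrays numbered 3 left out.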

Additional observations from a re-analysis of the deposited data

Results flagged for a closer look

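The KO difference of Ccl28 depended on the segment by the interaction test: large minus small intestine gave 4.84 ± 0.34 on the log2 scale in limma (adjusted p = 0.00882), and 3.27 with normexp background correction. It did not pass without KO small intestine replicate 3, WT small intestine replicate 3, either WT large intestine array or both KO arrays numbered 3, and its adjusted p ran from 0.00741 to 0.0939 over the settings. Ccl28 read 39.03 and 39.78 in KO small intestine, against 947.2 and 1186 in WT small intestine, and 4856 and 6495 in KO large intestine, against 5869 and 4772 in WT large intestine. The KO small intestine reading of 39.78 was not well above background. The KO lay below WT on both small intestine arrays, and the groups overlapped in the large intestine.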

How the results depend on the processing

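Of the 10 chemokine genes, 9 passed in the small intestine (KO against WT), and 7 to 9 did so with normexp, quantile normalization, the authors' normalized table, a filter on all arrays (Ccl28 and Cxcl2 not tested), flags ignored or the mean of a gene's probes. Without a background filter 5 passed, without both KO arrays numbered 3 it was 2, and leaving out single arrays gave 2 to 8. In the large intestine the count of 0 became 1 with normexp and 1 without both KO arrays numbered 3, and stayed 0 for each array left out. Over both segments the count of 5 was 0 without both KO arrays numbered 3 and 0 to 4 with single arrays left out. For the interaction the count of 1 was 0 with the filter on all arrays, where Ccl28 was not tested, 0 without both KO arrays numbered 3, and 0 to 2 with single arrays left out. Large against small intestine gave 2 to 5 in WT (4 in all arrays) and 3 to 5 in the KO (5 in all arrays) with single arrays left out. With the replicate block, where equal numbers share a slide row and no stated source, the small intestine count was 6, that over both segments 2 (Cxcl1 and Cxcl5), and the interaction 1.

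Over all genes, the count that passed moved by more than 1.5 times in these settings. In the small intestine it was 1991, against 486 without a background filter, 1157 with the replicate block, 14 without both KO arrays numbered 3, and 70 to 3824 with single arrays left out. In the large intestine it was 62, against 19 without a background filter, 32 with the filter on all arrays, 15 with the block, 100 without both KO arrays numbered 3, and 0 to 86 with single arrays left out. Over both segments it was 131, against 85 with normexp, 53 without a filter, 66 with the block, 5 without both KO arrays numbered 3, and 1 to 58 with single arrays left out. For the interaction it was 28, against 15 without a filter, 5 with the filter on all arrays, 11 without both KO arrays numbered 3, and 1 to 937 with single arrays left out. Large against small intestine gave 3997 in WT (899 to 4982 with single arrays left out) and 3193 in the KO (1203 to 3066, and 1646 without both KO arrays numbered 3).

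Of the members' fold changes under each alternative, 843 kept direction and side of the threshold, 121 no longer passed, 12 newly passed and 32 changed sign, none of which had passed. For the other named genes 485 were unchanged and 307 no longer passed. Cldn7 in the large intestine had an adjusted p of 0.0083 to 0.302. The sign changes were these, with the cause not tested. For large against small intestine in the KO minus WT difference, single arrays left out gave -0.11 to 0.28 for Ccl11, -0.80 to 0.50 for Cxcl1, -0.64 to 2.23 for Cxcl2, -0.41 to 0.67 for Cxcl5 and -0.61 to 1.57 for Cxcl10, while Cxcl1 was 0.20 with normexp and 0.04 in the authors' normalized table, and without both KO arrays numbered 3 Cxcl2 was -1.49 and Cxcl10 -0.57. For KO against WT they gave -0.53 to 0.50 for Ccl3 and -0.12 to 0.30 for Ccl28 in the large intestine and -0.86 to 1.31 for Cxcl10 in the small intestine. In the large intestine Ccl3 was also 0.02 with normexp, 0.11 with quantile normalization and 0.11 in the authors' normalized table, and Ccl28 was -0.12 without both KO arrays numbered 3. Large against small intestine in the KO gave -1.19 to 1.69 for Cxcl2 and -1.01 to 1.16 for Cxcl10, with -2.04 (adjusted p = 0.0289) and -0.97 without both KO arrays numbered 3, and Cxcl2 in WT, dim in both segments, was 0.11 in the authors' normalized table.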
